A study of Rattus norvegicus with 4 samples.

Results

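The genes described here encode the machinery that pulls duplicated chromosomes apart: the centromere and kinetochore, the spindle checkpoint, the chromosomal passenger complex with the switch into anaphase, the spindle, the condensed chromosome and the apparatus of cytokinesis. The list was written by gene symbol and holds 57 genes, of which 45 have a row in the deposited table of 17949 genes and 12 do not (Cenph, Cenpo, Cenpp, Spc24, Cenpe, Zwilch, Sgo1, Ckap5, Ncapd2, Ncapg, Ncaph and Anln). The 12 were not analysed here, so condensin is represented by its SMC subunits Smc2 and Smc4 alone, and anillin and CENP-E are not covered. All 45 genes with a row had at least 246 counts in every sample and were tested.

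RNA-seq was performed on primary Schwann cells (SCs), the glia of peripheral nerve, grown from rat sciatic nerve. All cultures were kept in medium with 10% serum, 4 μM forskolin and 5 ng/ml heregulin-β1, agents known to drive SC division, so the control cells were exposed to them as well. The cells received, at 2 UFC per cell for 48 h, either a lentivirus that overexpresses the Egr2 promoter antisense RNA (Lenti-AS, n = 2) or the backbone virus carrying GFP (Lenti-GFP, n = 2). Because the Egr2-AS vector is named for the red protein DsRed, the reporter may differ between the groups as well. The share of infected cells and the level of the Egr2-AS, which has no row of its own, were not measured in this table. In bulk RNA, more cells in mitosis and more RNA per mitotic cell cannot be told apart.

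In a dividing cell, the histone variant CENP-A marks the centromere, a constitutive network of CENP proteins assembles on it, and the outer kinetochore binds microtubules from there. The checkpoint holds back the activator CDC20 until every chromosome is attached; separase then cuts cohesin, and the central spindle places the cleavage furrow. Transcription of most of these genes is known to peak in G2 and M phase, through promoters that carry a 6-base element called the cell cycle genes homology region (CHR), often downstream of CCAAT boxes bound by the factor NF-Y.

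RefSeq promoter sequences (GRCr8, 250 bases before to 50 bases after an annotated start) were found for 49 of the 57 genes, as 50 promoters because Mis12 has more than 1 start. None was found for Cenpt, Incenp, Racgap1, Sgo2, Tpx2, Ube2c, Zwilch and Zwint. The CHR core TTTGAA, searched on both strands, occurred in 32 of the 50 promoters (64%), against 18.3% of all 33469 promoters and 11.5% of the 9937 promoters of genes tested. The CCAAT box, also searched on both strands, occurred in 32 of 50 (64%), against 37.5% of all promoters and 37.3% of those of genes tested. Both elements were present in 46% of the member promoters and in 4.78% of the promoters of genes tested. The median GC content was 57.7% in the member promoters, 60.7% in the promoters of genes tested and 51.7% in all promoters. These matches are descriptions of sequence, and binding was not measured.

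The sequences below run from 120 bases before to 30 bases after the annotated start, 5′ to 3′, with the CHR core (TTTGAA), the CCAAT box and the reverse complement of either in capitals. The first 6 show, for each role with a called gene, the called gene with the largest rise that has the CHR core in this window. In Mki67, one CHR core and one reversed CCAAT box overlap by their shared A.
Cenpa, chr6:31431523-31431672, minus strand: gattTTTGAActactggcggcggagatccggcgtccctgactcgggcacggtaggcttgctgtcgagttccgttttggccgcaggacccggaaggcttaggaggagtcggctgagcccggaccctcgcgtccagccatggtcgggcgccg
Cenpf, chr13:103760857-103761006, minus strand: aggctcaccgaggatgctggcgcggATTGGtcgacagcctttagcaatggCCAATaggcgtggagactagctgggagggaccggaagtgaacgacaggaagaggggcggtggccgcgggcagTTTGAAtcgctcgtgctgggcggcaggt
Cdc20, chr5:137255770-137255919, minus strand: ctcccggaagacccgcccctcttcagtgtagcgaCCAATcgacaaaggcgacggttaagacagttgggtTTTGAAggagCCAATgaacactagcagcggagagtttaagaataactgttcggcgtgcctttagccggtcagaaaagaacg
Nusap1, chr3:127057175-127057324, plus strand: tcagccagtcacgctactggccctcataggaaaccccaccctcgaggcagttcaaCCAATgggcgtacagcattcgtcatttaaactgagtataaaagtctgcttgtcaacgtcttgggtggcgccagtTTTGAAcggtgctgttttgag
Mki67, chr1:199952564-199952713, minus strand: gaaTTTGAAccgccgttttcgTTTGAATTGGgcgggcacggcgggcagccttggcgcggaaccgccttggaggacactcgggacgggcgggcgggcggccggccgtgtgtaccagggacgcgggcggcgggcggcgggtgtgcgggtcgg
Prc1, chr1:143659361-143659510, plus strand: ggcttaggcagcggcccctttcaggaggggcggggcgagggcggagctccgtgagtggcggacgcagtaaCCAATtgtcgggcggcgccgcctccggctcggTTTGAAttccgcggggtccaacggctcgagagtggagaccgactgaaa
The last 2 are shown for contrast. Gtse1 had the largest rise of all and neither element in its 300 bases, and Bub3, which did not pass the test, has CCAAT boxes and no CHR core.
Gtse1, chr7:118830053-118830202, plus strand: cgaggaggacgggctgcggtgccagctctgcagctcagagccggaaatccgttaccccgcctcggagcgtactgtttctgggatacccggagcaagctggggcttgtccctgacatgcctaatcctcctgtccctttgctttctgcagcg
Bub3, chr1:195760412-195760561, plus strand: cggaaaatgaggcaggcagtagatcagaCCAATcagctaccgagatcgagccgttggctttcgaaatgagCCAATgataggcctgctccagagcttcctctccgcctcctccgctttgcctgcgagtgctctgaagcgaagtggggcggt

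Matches to the CHR core were more frequent near the start, while CCAAT boxes were spread over the bases upstream of -25 and were few from there on. A TTTGAA began within the 100 bases before the start in 38% of the member promoters, against 5.97% of all promoters and 3.54% of those of genes tested. In Cdc20 it began at position -51, in Prc1 at -18, in Cenpf at 3 and in Nusap1 at 10. For the CCAAT box, the bin from -100 to -76 held the most member promoters, 26%, against 5.73% of all promoters. The bin farthest from the start, -250 to -226, held 18%, against 3.80%. The bins from -25 to -1, 1 to 25 and 26 to 50 held 4%, 6% and 0%, against 3.73%, 2.95% and 2.28%.

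**Figure D1:**
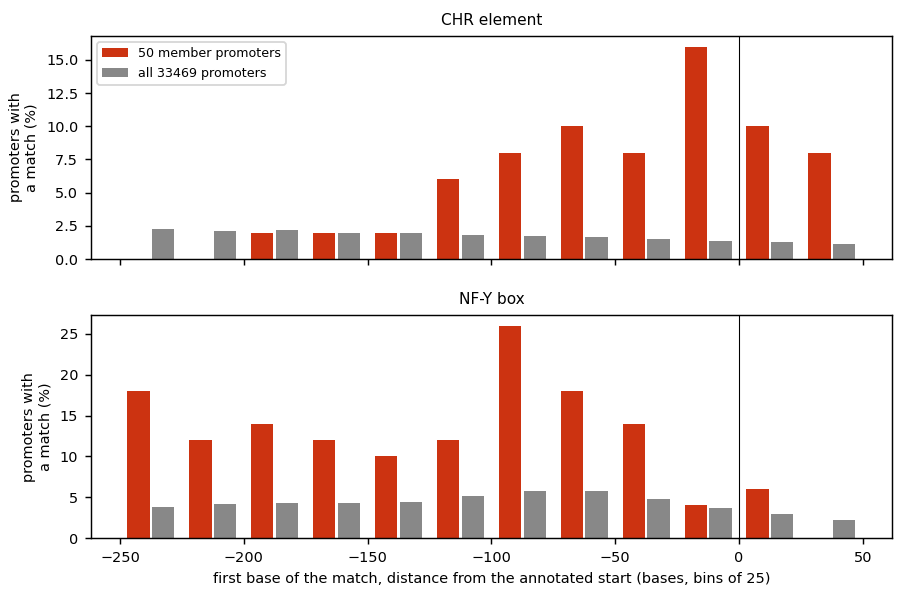
Share of promoters (%) with a match, by the distance in bases of the first base of the match from the annotated start, in bins of 25 bases, for the CHR element (top) and the NF-Y box (bottom), in the 50 member promoters (red) and all 33469 promoters (grey). For the CHR element the red bars were highest in the bin from -25 to -1, at 16% against 1.35%, and for the NF-Y box in the bin from -100 to -76.

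Most of these genes were higher in Lenti-AS, by a moderate amount. Of the 45 genes tested, 16 rose and 0 fell by edgeR's quasi-likelihood test (called where the Benjamini-Hochberg adjusted p over 12446 genes was under 0.05 and the fold change reached 1.3, the study's cut-offs; called without a tool named means by edgeR), and 41 had a fitted level above that of Lenti-GFP. The called share was 35.6%, whereas 1.31% of all genes tested were called higher and 0.667% lower. By the adjusted p alone the counts were also 16 and 0, against 1.40% and 0.779% of all genes tested. The median log2 fold change was 0.42, a fold change of 1.34, beside a median of 0.0071 over all genes tested. The levels given are CPM, counts per 1000000 of a library size scaled by the trimmed mean of M-values (TMM). The summed level of the 45 genes was 2284 and 2331 CPM in Lenti-GFP against 3094 and 3068 CPM in Lenti-AS, a ratio of 1.34. In 41 genes both Lenti-AS samples lay above both Lenti-GFP samples (91.1%, against 27.7% of all genes tested), in 1 they lay below (27.2% of all genes tested), and in 3 the groups overlapped. At an unadjusted p under 0.05, 37 genes were higher (12.5% of all genes tested) and 0 lower (9.37%).

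Many genes lay just beyond the threshold. A further 7 genes had an adjusted p between 0.05 and 0.06, 8 between 0.06 and 0.1, and 14 above 0.1. DESeq2, with the same cut-offs, called 28 of the 45 higher and 0 lower (4.86% and 1.39% of all genes it tested), the 16 among them, and limma-voom called 15 and 0, with 14 of the 16 among them. Without Lenti-GFP 1, or without Lenti-GFP 2, edgeR called 0 of the 45 genes, with 33 and 31 at an unadjusted p under 0.05 and medians of 0.43 and 0.42. Without Lenti-AS 1 it called 25 and without Lenti-AS 2 it called 30. The calls in the whole table moved in the same way, from 163 genes higher to 0 without either Lenti-GFP sample, 567 without Lenti-AS 1 and 1260 without Lenti-AS 2. For a single gene, an exact two-sided permutation test of 2 samples against 2 cannot give a p below 0.333.

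**Figure D2:**
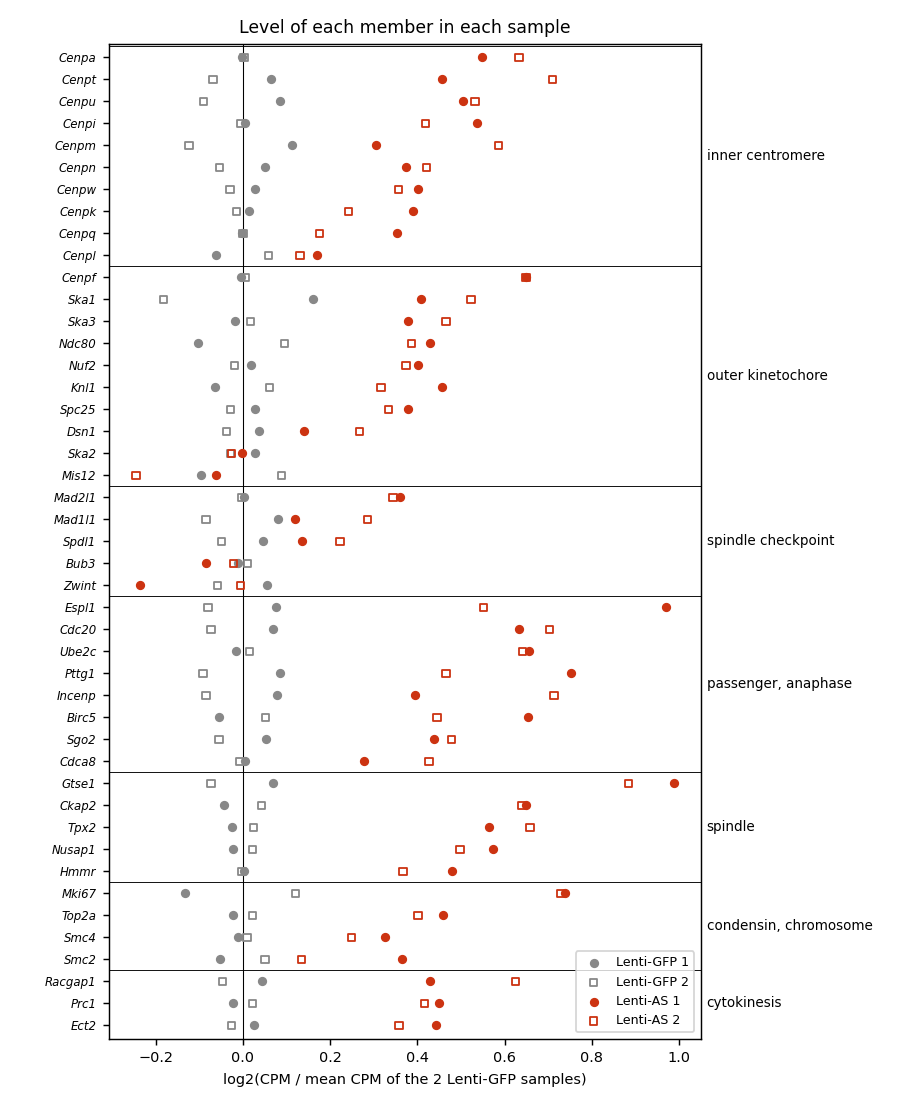
Level of each of the 45 genes in each sample, as log2 of its CPM over the mean CPM of the 2 Lenti-GFP samples (x axis), with genes on the y axis grouped by role and ordered by fold change. Grey marks are Lenti-GFP and red marks Lenti-AS, filled for replicate 1 and open for replicate 2. In 41 genes both red marks lie right of both grey ones, the exceptions being Ska2, Mis12, Bub3 and Zwint.

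Of the 10 inner centromere genes tested, 2 rose, Cenpa and Cenpi. In all 10 both Lenti-AS samples lay above both Lenti-GFP samples, with log2 fold changes from 0.15 to 0.59, and the intervals of Cenpl and Cenpq included 0. The role median was 0.42 on the log2 scale. Cenpa, the centromeric histone itself, had 8.63 and 8.66 CPM in Lenti-GFP and 12.7 and 13.4 CPM in Lenti-AS. The Lenti-GFP samples were nearly equal and both Lenti-AS samples were higher (log2 fold change 0.59 with a standard error of 0.10, edgeR adjusted p = 0.0463). Cenpi, a subunit of the constitutive network, had 26.3 and 26.2 CPM against 38.1 and 35.1 CPM (0.48 with a standard error of 0.07, edgeR adjusted p = 0.0394). Cenpt, whose product links the network to the outer kinetochore, had 16.8 and 15.3 CPM in Lenti-GFP and 22.1 and 26.3 CPM in Lenti-AS. Its log2 fold change of 0.59 equalled that of Cenpa, but its Lenti-AS samples differed more from one another and it did not pass (standard error 0.11, adjusted p = 0.0577 from edgeR and 0.000385 from DESeq2). The smallest difference was that of Cenpl, with 15.4 and 16.7 CPM against 18.1 and 17.6 CPM, a log2 fold change of 0.15 with a 95% interval from -0.05 to 0.35 (standard error 0.08, edgeR adjusted p = 0.336). Cenpl and Cenpn encode partners that recognise the CENP-A nucleosome. Cenpn stood at 0.40 and was called by DESeq2 only (adjusted p = 0.00312, against 0.0577 from edgeR). Cenpu, Cenpm, Cenpw, Cenpk and Cenpq, other subunits of the network, had log2 fold changes of 0.52, 0.45, 0.38, 0.32 and 0.27. edgeR called none of them, and DESeq2 called Cenpu and Cenpw higher (adjusted p = 0.00527 and 0.000835).

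The outer kinetochore genes fell into a larger set with similar differences and a few near 0. Of 10 tested, 2 rose, Cenpf and Nuf2, and the median was 0.39. Cenpf, whose product sits on the kinetochore corona and accumulates in G2, had 91.0 and 91.7 CPM in Lenti-GFP and 143 CPM in both Lenti-AS samples. Replicates differed by less than 1% in both groups, and Cenpf had the smallest p of the 45 genes (log2 fold change 0.65 with a standard error of 0.05, edgeR adjusted p = 0.0144). The measured subunits of the NDC80 complex, the main microtubule anchor, had log2 fold changes of 0.41 for Ndc80, 0.39 for Nuf2 and 0.36 for Spc25. Their intervals overlapped. Nuf2 alone was called, with an adjusted p from edgeR just under 0.05, while those of Ndc80 and Spc25 were 0.0755 and 0.0563. DESeq2 called Nuf2 and Ndc80 higher (adjusted p = 4.22e-05 and 0.00498). It gave Spc25 an adjusted p of 0.00276, with a rise under the 1.3-fold cut-off. Knl1, the platform for checkpoint proteins, stood at 0.39 and was called by DESeq2 only (adjusted p = 0.00363, against 0.0801 from edgeR).

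The Ska complex helps kinetochores follow shrinking microtubules. Ska1 had 15.3 and 12.1 CPM in Lenti-GFP and 18.1 and 19.6 CPM in Lenti-AS, and Ska3 stood at 0.42 on the log2 scale, but edgeR called neither (adjusted p = 0.124 and 0.0503), while DESeq2 called both higher (adjusted p = 0.0249 and 0.00157). The log2 fold change of Ska1 was 0.47 with a standard error of 0.13. Ska2 had 21.9 and 21.1 CPM against 21.4 and 21.1 CPM, and its 95% interval, from -0.18 to 0.15, lies below the median of the list and overlaps that of Ska1, from 0.15 to 0.78. The difference between the subunits was not tested. In the MIS12 complex, which bridges the inner and outer layers, Dsn1 had a log2 fold change of 0.20. Mis12 was the lowest of all 45 genes, with 29.2 and 33.2 CPM in Lenti-GFP and 29.9 and 26.3 CPM in Lenti-AS. The groups overlapped, with a log2 fold change of -0.15 and an interval from -0.39 to 0.09 (standard error 0.10, edgeR adjusted p = 0.408).

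The checkpoint genes had the smallest role median, 0.18. By edgeR, DESeq2 and limma-voom 0 of 5 passed, and 1 had an unadjusted p under 0.05. That 1 gene was Mad2l1, whose product forms the inhibitor of CDC20. It had 39.3 and 39.1 CPM in Lenti-GFP and 50.3 and 49.8 CPM in Lenti-AS, close replicates and separate groups (log2 fold change 0.35 with a standard error of 0.06, edgeR adjusted p = 0.0574). By DESeq2 it failed only the 1.3-fold cut-off (adjusted p = 0.000397). Mad1l1, its kinetochore receptor, had 22.6 and 20.1 CPM against 23.2 and 26.0 CPM, separate groups that did not pass (0.20 with a standard error of 0.09, edgeR adjusted p = 0.267). Spdl1, which recruits dynein to the kinetochore, stood at 0.18. Bub3, which also binds checkpoint proteins in interphase, had 149 and 151 CPM against 141 and 148 CPM, the only gene with both Lenti-AS samples below both Lenti-GFP samples, and its interval from -0.18 to 0.08 includes 0. Zwint, which ties the corona to KNL1, had 114 and 105 CPM against 93.2 and 109 CPM, with overlapping groups (-0.12 with a standard error of 0.09, edgeR adjusted p = 0.497). The summed level of the 5 genes was 342 and 332 CPM in Lenti-GFP and 327 and 353 CPM in Lenti-AS.

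Genes of the passenger complex, of cohesion and of the anaphase trigger had the second largest role median, 0.59, and in all 8 the groups did not overlap. The 3 called genes were Cdc20, Ube2c and Birc5. Cdc20, the activator of the anaphase-promoting complex, had 38.8 and 35.2 CPM in Lenti-GFP and 57.4 and 60.3 CPM in Lenti-AS, a 1.59-fold rise (log2 fold change 0.67 with a standard error of 0.08, edgeR adjusted p = 0.0251). Ube2c, the ubiquitin-conjugating enzyme of that complex, had 22.8 and 23.3 CPM against 36.3 and 35.9 CPM, with replicates closer than for Cdc20 (0.65 with a standard error of 0.06, edgeR adjusted p = 0.0191). Espl1, which encodes separase, had the highest log2 fold change of this role, 0.78, but few counts. It had 5.35 and 4.80 CPM in Lenti-GFP and 9.94 and 7.44 CPM in Lenti-AS. Its Lenti-AS samples differed 1.34-fold, the most of any of the 45 genes. It did not pass by edgeR (standard error 0.17, adjusted p = 0.0874), but DESeq2 called it higher (adjusted p = 0.0035). Pttg1, which encodes the separase inhibitor securin, stood at 0.62 with the fewest counts of the list (adjusted p = 0.135).

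The passenger complex, which corrects faulty attachments, is represented by Birc5 (survivin, 0.55, adjusted p = 0.0471 from edgeR), Incenp (0.56, adjusted p = 0.0813) and Cdca8 (borealin, 0.35, adjusted p = 0.0842). DESeq2 called Birc5 and Incenp higher (adjusted p = 0.000108 and 0.000549). It gave Cdca8 an adjusted p of 0.00231, with a rise under the 1.3-fold cut-off. Cdca8 was the lowest of this role, with 46.5 and 46.1 CPM against 56.1 and 62.2 CPM, and still had both Lenti-AS samples above both Lenti-GFP samples (standard error 0.08). Sgo2, a shugoshin that shields cohesin at centromeres, stood at 0.46. Like Incenp and Espl1, it was called by DESeq2 only (adjusted p = 0.00605, against 0.0704 from edgeR).

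The spindle genes had the largest role median, 0.61, and 4 of 5 rose. Gtse1, a microtubule-associated protein expressed in G2 that is also known to restrain p53, had 12.1 and 11.0 CPM in Lenti-GFP and 22.9 and 21.3 CPM in Lenti-AS. This 1.91-fold rise was the largest of the list (log2 fold change 0.94 with a standard error of 0.09, edgeR adjusted p = 0.0191). Ckap2, a microtubule-stabilising protein, had 69.5 and 73.8 CPM against 112 CPM in both Lenti-AS samples (0.64 with a standard error of 0.06, edgeR adjusted p = 0.0191). Tpx2, the activator of Aurora A on the spindle, and Nusap1, which binds microtubules near chromosomes, rose by 0.61 and 0.54 on the log2 scale. Hmmr, which helps focus spindle poles, was the lowest, with 52.5 and 52.3 CPM against 73.1 and 67.6 CPM. It missed the threshold by edgeR (0.42 with a standard error of 0.07, adjusted p = 0.0506). DESeq2 and limma-voom called it higher (adjusted p = 1.93e-05 and 0.0428).

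Among the genes of the mitotic chromosome, Mki67 and Top2a rose and the condensin subunits did not pass. Mki67, whose product coats mitotic chromosomes, had 198 and 236 CPM in Lenti-GFP and 362 and 359 CPM in Lenti-AS, with the Lenti-GFP samples the more distant pair (log2 fold change 0.73 with a standard error of 0.09, edgeR adjusted p = 0.0264). Top2a, the topoisomerase that untangles sister DNA, had 322 and 332 CPM against 450 and 432 CPM (0.43 with a standard error of 0.05, edgeR adjusted p = 0.0276). Smc2 had 99.0 and 106 CPM against 132 and 113 CPM, and Lenti-AS 2 lay close to the Lenti-GFP samples. Its log2 fold change was 0.25, and that of its partner Smc4 was 0.29 (standard errors 0.09 and 0.06, adjusted p = 0.189 and 0.0662 from edgeR). From DESeq2 the adjusted p was 0.0791 and 0.00118, and both rises were under the 1.3-fold cut-off.

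All 3 measured genes of cytokinesis rose. Prc1, which bundles the microtubules of the central spindle, had 175 and 180 CPM in Lenti-GFP and 242 and 237 CPM in Lenti-AS (log2 fold change 0.43 with a standard error of 0.05, edgeR adjusted p = 0.0264). Racgap1, a subunit of centralspindlin, had 34.9 and 32.8 CPM against 45.6 and 52.2 CPM (0.53 with a standard error of 0.09, edgeR adjusted p = 0.0499). Ect2, the exchange factor that activates RhoA at the furrow and is recruited by centralspindlin, had 81.8 and 79.0 CPM against 109 and 103 CPM (0.40 with a standard error of 0.06, edgeR adjusted p = 0.0451). In each of them the groups were separate, and the rise was between 1.32-fold and 1.44-fold.

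**Figure D3:**
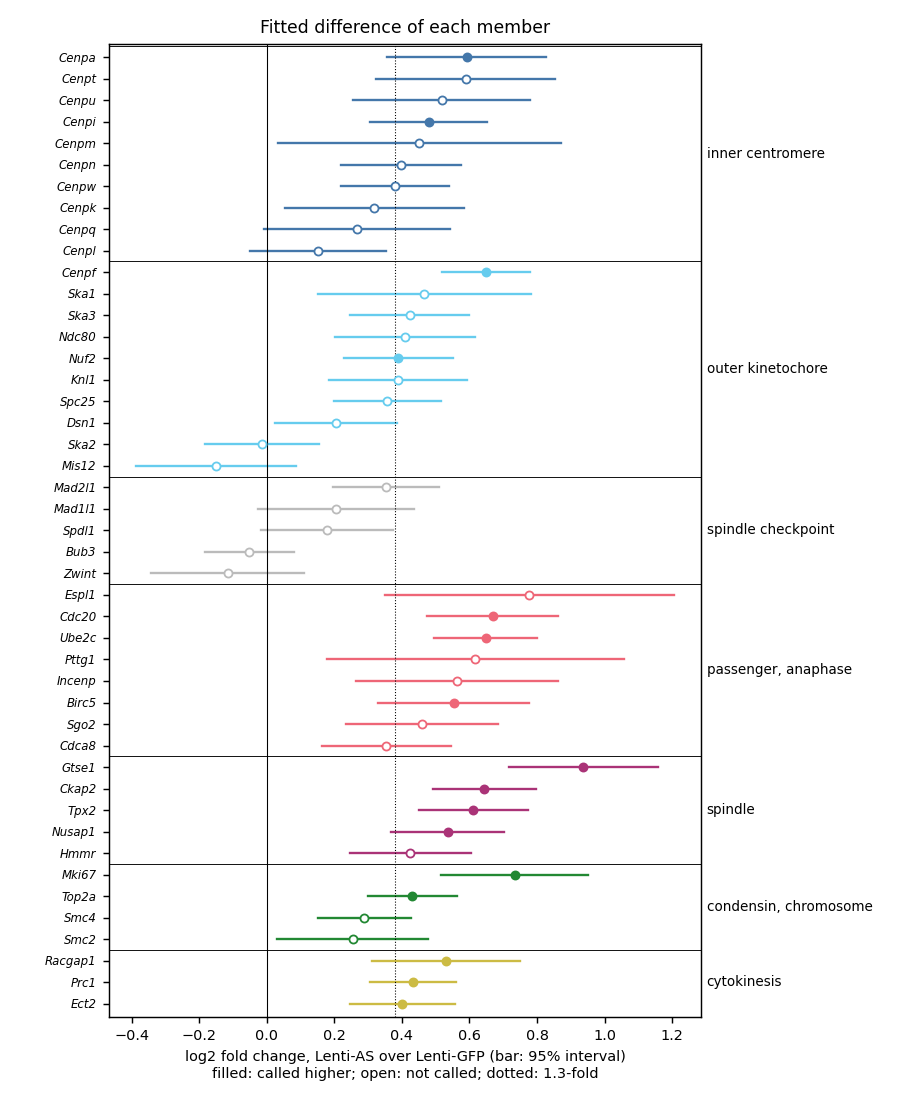
Fitted log2 fold change of Lenti-AS over Lenti-GFP (x axis) for each of the 45 genes (y axis, grouped by role), with its 95% interval from the edgeR fit as a bar. Filled points are called higher, open points are not called, and the dotted line marks a fold change of 1.3. Gtse1 lies farthest right at 0.94, and Ska2, Bub3, Zwint and Mis12 lie left of 0.

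Both Lenti-AS samples carried the difference. Over the 45 genes the median ratio to the mean of Lenti-GFP was 1.35 in Lenti-AS 1 and 1.34 in Lenti-AS 2, and 41 genes were above that mean in each. Lenti-AS 1 was the higher of the pair in 26 genes. The largest disagreement between the Lenti-GFP samples was 1.27-fold, for Ska1.

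Both the CHR core and the CCAAT box were more frequent in the promoters of called genes. The core was present in 12 of the 13 promoters of genes called higher (92.3%), Gtse1 being the exception. It was present in 15 of the 26 promoters of genes tested and not called (57.7%). The CCAAT box was present in 10 of the 13 (76.9%) and in 15 of the 26 (57.7%). Both elements were present in 76.9% and 34.6%. Of the 38 tested genes with a promoter sequence, the 27 with the core had a median log2 fold change of 0.43 and the 11 without had a median of 0.27. For the CCAAT box the medians were 0.42 in 25 genes with it and 0.39 in 13 without. Mis12 has the core only at position -200 of its second start, and Ska2 and Bub3 lack it, whereas Ska3 and Cenpu lack it too and stood at 0.42 and 0.52. The difference between genes with and without an element was not tested.

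To set these genes beside the rest of the mitotic apparatus, 96 other genes were listed by role, of which 79 were tested. Of these, 14 rose, 1 fell and the median log2 fold change was 0.07. Of 72 promoters found for the tested genes, 27.8% held the CHR core and 45.8% the CCAAT box. The calls lay in the other centromere and kinetochore genes (6 of 19), the other spindle and centrosome genes (5 of 16) and the other cytokinesis and midbody genes (3 of 15). Tacc3, a spindle-stabilising protein, rose by 0.64, Oip5, which helps load CENP-A, by 0.57, Kntc1, a subunit of the corona complex that also holds ZW10, by 0.51, and Aspm, a spindle pole protein, by 0.55, all on the log2 scale. Fam83d, Spag5, Knstrn, Kif2c, Kif11, Kif20a, Dlgap5, Cep55, Kif23 and Haus4 rose by between 0.39 for Haus4 and 0.62 for Fam83d. Cenpc, the backbone of the constitutive network, had 51.9 and 54.4 CPM in Lenti-GFP and 54.6 and 53.0 CPM in Lenti-AS, and Zw10, which works in the corona and also in membrane traffic, stood at -0.03.

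Cohesin and the anaphase-promoting complex, each listed together with regulators, had medians near 0. In the cohesin list 0 of 11 passed by edgeR, DESeq2 or limma-voom, and the median was -0.03. At an unadjusted p under 0.05 by edgeR, 2 genes were higher, Rad21 and Cdca5 (12.5% of all genes tested were higher). The core subunits Smc1a and Smc3 stood at -0.03 and -0.06. Rad21, the subunit cut by separase, stood at 0.34 (adjusted p = 0.0693 from edgeR and 0.00082 from DESeq2). By DESeq2 it failed only the 1.3-fold cut-off. Cdca5, with few counts, stood at 0.59 with separate groups (adjusted p = 0.14 from edgeR and 0.0782 from DESeq2). In the list of the anaphase-promoting complex 0 of 16 passed by the same tools, and the median was -0.05. There, 3 genes were higher and 3 lower at an unadjusted p under 0.05 by edgeR (12.5% and 9.37% of all genes tested). The 3 higher were Fbxo5, Fzr1 and Ube2s, at 0.45, 0.32 and 0.16, which act on or with the complex and are not core subunits. The 3 lower were the subunits Cdc23, Anapc4 and Anapc5, at -0.24, -0.19 and -0.13. Cdc20, the substrate adaptor of the complex, rose, as given above, whereas the subunit Cdc27 stood at -0.0028. Of condensin II, Ncapd3 and Ncaph2 stood at 0.30 and 0.04. The 1 gene that fell was Chmp4c, a component of the machinery that severs the midbody, with 53.1 and 52.8 CPM in Lenti-GFP and 40.1 and 37.6 CPM in Lenti-AS (log2 fold change -0.45 with a standard error of 0.07, edgeR adjusted p = 0.0430).

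**Figure D4:**
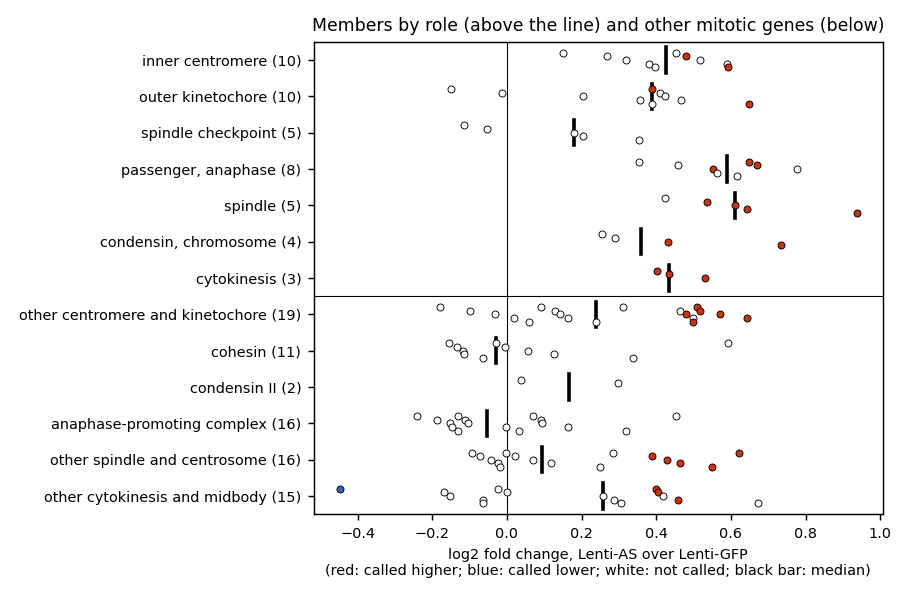
Log2 fold change of Lenti-AS over Lenti-GFP (x axis) for every tested gene of the 7 roles (above the line) and of the 6 lists of other mitotic genes (below), with the number of genes in brackets; each point is a gene, red called higher, blue called lower and white not called, and black bars are medians. The medians above the line run from 0.18 to 0.61, and those of cohesin and the anaphase-promoting complex lie just below 0.

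Total counts per sample were between 74024323 and 96185890. Of 15 SC markers, Mbp and Pou3f1 were called higher. S100b, Pmp22 and Cnp were between 2027 and 3272 CPM in every sample. Gap43 had at most 25 counts in any sample. The fibroblast markers Dcn, Lum and Thy1 were at most 0.0321 CPM, while Col1a1, Col1a2 and Col3a1 were detected. Of the same list, Pdgfrb was between 225 and 279 CPM and Pdgfra between 3.09 and 4.07 CPM. Prrx1 and Tcf21 were at most 0.118 CPM. The summed fibroblast list ran from 4049 to 4521 CPM in Lenti-GFP and from 3093 to 4898 CPM in Lenti-AS. Within it, Col1a1 and Col1a2 differed between the Lenti-AS samples. Col1a1 had 841 and 721 CPM in Lenti-GFP against 2131 CPM in Lenti-AS 1 and 290 CPM in Lenti-AS 2. Col1a2 had 155 and 133 CPM against 340 and 120 CPM. The 9 macrophage markers summed to between 3.66 and 4.66 CPM, and 6 endothelial markers, with Tek at 14.7 to 20.2 CPM, to between 15.4 and 20.9 CPM. The 7 globin rows summed to 3396 CPM in Lenti-AS 2 and to between 4.85 and 10.8 CPM in the other samples. edgeR called 0 of the fibroblast, macrophage, endothelial and globin rows. DESeq2 called all 7 globin rows higher (Hbb with an adjusted p of 0.00592) and Tek lower (adjusted p = 0.00324, against 0.0559 from edgeR). Col3a1 was called lower by DESeq2 (adjusted p = 4.86e-06) and by limma-voom, and had an adjusted p of 0.0520 from edgeR. A refit without the globin rows still called 15 of the 16 called genes. Beyond that refit, the part of any of these markers in the results was not tested. The median of the 45 genes was 0.43 without Lenti-AS 2.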

How the data were processed

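Counts of 4 RNA-seq samples of cultured rat SCs were used, 2 Lenti-GFP and 2 Lenti-AS, grouped by their titles, each replicate described as biological. The authors deposited whole-number counts per gene, from 50 bp paired-end reads aligned to rn6 and counted with featureCounts over RefSeq exons. The paper names hisat2 as the aligner and the submitters' processing notes name GSNAP. Versions, strand setting and treatment of reads with several matches are not given in the sources used here, so counts of genes with antisense or near-identical copies are uncertain. A row repeating the header was dropped.

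The 12446 genes that reached 10 counts in 2 or more samples were fitted with edgeR 4.0.16 in R 4.3.3 (TMM, glmQLFit, glmQLFTest, no replicate term, adjustment over all genes tested). The common biological coefficient of variation was 12.1%. The standard error is the log2 fold change over the root of F, and 95% intervals use the degrees of freedom of the fit. Alternatives were DESeq2 1.42.0, limma-voom (limma 3.58.1), other scalings and filters, a replicate block and leaving out samples. The functions were tested on simulated data.

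The genes, lists and tests were chosen with earlier results of these data known. In each role, values per sample are given for the 2 largest and the lowest log2 fold changes and the smallest p, and for Bub3, Ska2, Cenpc and Chmp4c, which were chosen after their values were seen. CPM values are not scaled by gene length, so they compare samples and not genes. The paper's ATAC-seq and Hi-C were not analysed here.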

Additional observations from a re-analysis of the deposited data

How the results depend on the processing

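The number of calls depended on the test and on the samples, while the median difference moved little. Against 16 of 45 genes called higher, DESeq2 called 28, and limma-voom, the other form of the quasi-likelihood fit, RLE factors, library totals, both other filters, removal of the globin rows and no fold cut-off gave 15 to 21. With 1 sample left out in turn the count was 0 to 30, and for the other mitotic genes 0 to 23 higher and 0 to 1 lower. Both counts of 0 came without a Lenti-GFP sample, where edgeR called 0 genes of the whole table higher and 1 lower (33 and 31 of the 45 at an unadjusted p under 0.05), and the remaining lone sample is assumed to vary like the other group. The labels do not tie replicate numbers to a shared culture, and the deviations of samples sharing a number had a correlation of -0.018 over genes. With the replicate block, edgeR called 0 members higher, with 35 at an unadjusted p under 0.05, and 0 other mitotic genes higher or lower, against 3 and 14 genes in the whole table. The block takes 1 of the 2 residual degrees of freedom.

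The median log2 fold change of the 45 genes was 0.46 with library totals, which moved the median of all genes to 0.04, and between 0.42 and 0.43 under the other settings. Ska2, near 0, changed sign with library totals (0.018) and without Lenti-GFP 1 (0.017, range over left-out samples -0.041 to 0.017). No other gene of the 45 changed sign. No gene of the 45 was called lower under any setting. The 1.3-fold cut-off also applied with samples left out, where Mis12, Zwint and Bub3 stayed below 0. Their log2 fold changes then ran from -0.25 to -0.055, from -0.24 to -0.0062 and from -0.085 to -0.021. Counting error was small beside the spread between samples (chi-square per gene of 32.4 in the Lenti-GFP pair and 103 in the Lenti-AS pair, where counting error alone gives about 1).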
